A study of Mus musculus with 6 samples.

Results

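The homologous recombination and Fanconi repair genes are 39 named genes out of the 32493 counted in RNA-seq of cultured mouse neural stem cells (NSCs). They were chosen by symbol, and each symbol matched 1 gene. In cko embryos miR-151 was flanked by loxP sites (floxed) and removed by Emx1-IRES-Cre, which is active in the dorsal telencephalon. The ctrl embryos carried the same floxed alleles without Cre, and the sample labels call them wt. The level of miR-151 itself was not analysed here, so its loss was not checked in these libraries. NSCs were taken at E14.5 from around the lateral ventricles and grown for 3 generations before RNA was isolated. Both genotypes had this culture in common, so that the RNA came from expanded cultures and not from freshly dissected tissue. The cultures also held RNA of glial markers, some of which differed between the genotypes (values below). The comparison asks how these genes differ between NSCs with and without miR-151. It rests on 3 cko libraries and 2 ctrl libraries, ctrl 1 and ctrl 3, since the deposited column of ctrl 2 equals the rounded mean of the other two and carries no counts of its own. The sources used here do not say how many embryos each library came from, so the p-values measure only the spread between these libraries. Each library held *Xist* and Y-linked RNA together, as a mix of male and female cells would (values below).

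Homologous recombination repairs a broken chromosome by copying the intact sister, which is present only after the DNA has been replicated. The broken ends are first resected to single strands, BRCA proteins prepare them for strand exchange, motor proteins help them to invade the sister, and the joined molecules are then dissolved or cut apart. The Fanconi pathway repairs crosslinks that bind both DNA strands together. Its core complex attaches ubiquitin to the FANCD2-FANCI clamp, and the lesion is then passed on to nucleases and to recombination. Cycling neural progenitors depend on both pathways during cortical growth, and inherited loss of several of these genes reduces brain size.

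Many of these genes were higher in cko NSCs. Of the 39 members, all of which passed the filter on low counts, 18 were called higher and 2 lower by the quasi-likelihood test of edgeR, with the p-value adjusted over all tested genes (Benjamini-Hochberg) under 0.05. Over the 16710 genes tested, 7.86% were called higher and 8.57% lower. The called members rose by a log2 fold change of 0.48 to 1.32, and the largest difference, that of *Fanci*, was 2.50-fold. *Atr* and *Fance* were the members that fell. The median log2 fold change was 0.53 over the members and -0.0026 over all tested genes, and 34 members lay above 0. At the study's own threshold, a log2 fold change beyond 0.9 with an unadjusted p under 0.01, 12 members were higher, against 2.39% of all tested genes. No member was lower there by edgeR or by DESeq2, against 4.17% of all tested genes, while at an unadjusted p under 0.05 alone 26 members differed in either direction, against 32.6% of all tested genes. In 29 members each cko library was above both ctrl libraries, and in 5 each was below both. Over all tested genes these shares were 25.4% and 24.3%.

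**Figure D1:**
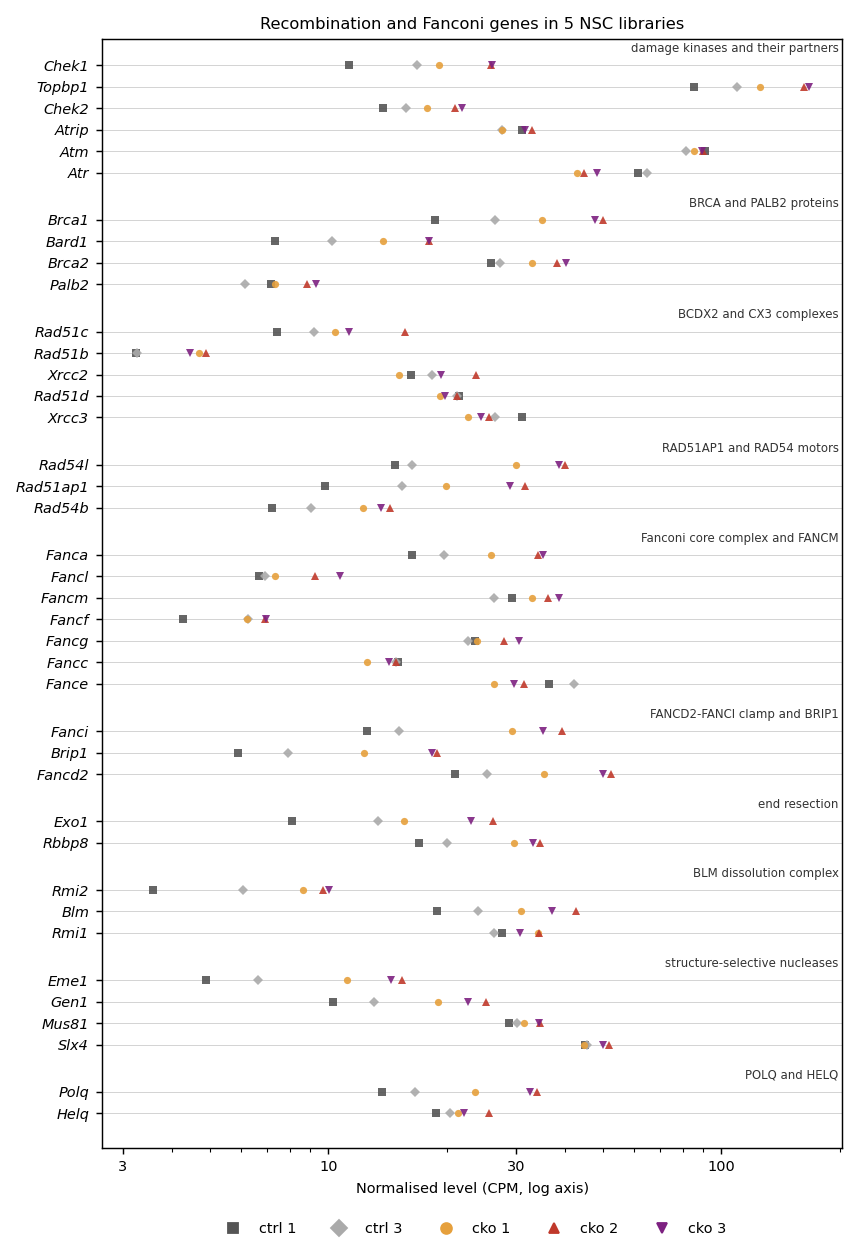
Normalised level of each of the 39 members in 2 ctrl and 3 cko libraries, in CPM (counts scaled to the library total) on a log axis, with members grouped by role. The cko points of *Fanci*, *Rad54l* and *Eme1* sit to the right of both ctrl points, those of *Atr* and *Fance* to the left, and cko 1 is the lowest cko library in 37 members.

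Leaving out single libraries changed the number of calls. Without cko 2, 3 members were called higher, and the same 3, *Fanci*, *Rad54l* and *Rbbp8*, were called without cko 3. The other 15 then had an adjusted p of 0.0582 to 0.166 and 0.0593 to 0.155 in edgeR. The calls over all tested genes fell as well, to 317 higher and 416 lower genes without cko 2 and to 336 and 457 without cko 3. The median of the members changed less, to 0.45 and 0.55. At the study's threshold the count of higher members fell from 12 to 4 without ctrl 1 and to 4 without cko 2. Bulk RNA cannot tell a larger share of cells that express a gene from more RNA in each cell.

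The promoters of the members were read for features that the choice of genes had not used. The stretches from 250 bases before to 50 bases after the annotated start came from RefSeq on GRCm38.p6, where 32 of the 39 members had an entry. *Rad51d*, *Rbbp8*, *Fancd2*, *Rad54b*, *Exo1*, *Rmi2* and *Xrcc2* were not matched. The letters searched on both strands were TTTCCCGC, TTTGGCGC, TTTGCCGC and TTTCGCGC, the forms bound by E2F factors at genes of the G1/S transition. A gene was counted when at least 1 of them stood in any of its listed promoters, so genes with more promoters had more chances to match. This held for 7 of the 32 members (21.9%), for 2.60% of 27025 genes with a promoter and for 4.59% of the 11295 of these that were tested. They were in 3 of 13 members called higher (23.1%), 4 of 17 not called (23.5%) and 0 of 2 called lower. A count of 0 among 2 genes says only that the letters are not in these windows. Each match is printed with 10 flanking bases on either side and the matched letters in capitals, because these are letters that members of different roles share. The strand is the one printed.

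*Bard1*, chr1:71103164-71103191, minus strand: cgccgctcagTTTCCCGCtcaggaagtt
*Brca2*, chr5:150522443-150522470, minus strand: tgtgtgtctgTTTCCCGCtgtggcctaa
*Topbp1*, chr9:103305188-103305215, minus strand: gggaaccgacTTTCGCGCcaaccgagcg
*Chek2*, chr5:110839821-110839848, minus strand: gacgtcttggTTTCCCGCggctaatccc
*Fancg*, chr4:43010336-43010363, minus strand: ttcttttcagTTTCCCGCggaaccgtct
*Rmi1*, chr13:58402613-58402640, plus strand: cccgagggagTTTGGCGCgattggagga
*Rad51c*, chr11:87404942-87404969, plus strand: accccttgctTTTCCCGCcctcgcgggg
*Rad51c*, second promoter, chr11:87404478-87404505, minus strand: tttccagcgcTTTCGCGCctcttgctct

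The form TTTCCCGC accounted for 5 of these 8 matches. *Bard1*, *Brca2* and *Topbp1* were called higher in cko NSCs and the other 4 genes were not called. The cell cycle homology element of late cell cycle genes, searched as TTTGAA and TTCGAA, was in 6 of 32 members (18.8%) against 16.1% of tested genes. It was in 4 of the 13 called higher (30.8%) and in 2 of 19 among the rest (10.5%). CCAAT, the box bound by NF-Y, was in 18 of 32 (56.2%) against 42.9%, with 6 of 13 among those called higher (46.2%) and 12 of 19 among the rest (63.2%). No searched motif contains another. The 250 bases before the start are printed for *Fanci* and *Rad54l*, the called members with the smallest p, and for *Atr*, the member with the lowest log2 fold change. The *Fanci* stretch held no searched letters. It lies inside the gene as GENCODE M21 draws it, which puts a start further upstream. The capitals mark CCAAT in *Rad54l*, 50 bases before the start, and TTCGAA in *Atr*, 215 bases before it.

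*Fanci*, chr7:79392088-79392337, plus strand: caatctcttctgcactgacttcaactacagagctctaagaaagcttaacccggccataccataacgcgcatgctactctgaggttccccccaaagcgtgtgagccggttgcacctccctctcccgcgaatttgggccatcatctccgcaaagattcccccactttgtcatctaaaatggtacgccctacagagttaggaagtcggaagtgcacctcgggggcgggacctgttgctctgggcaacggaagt
*Rad54l*, chr4:116123691-116123940, minus strand: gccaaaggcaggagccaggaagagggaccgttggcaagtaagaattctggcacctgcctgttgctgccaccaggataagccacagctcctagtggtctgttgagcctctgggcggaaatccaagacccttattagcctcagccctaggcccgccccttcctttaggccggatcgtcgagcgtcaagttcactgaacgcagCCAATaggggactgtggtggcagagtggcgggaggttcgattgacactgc
*Atr*, chr9:95857347-95857596, plus strand: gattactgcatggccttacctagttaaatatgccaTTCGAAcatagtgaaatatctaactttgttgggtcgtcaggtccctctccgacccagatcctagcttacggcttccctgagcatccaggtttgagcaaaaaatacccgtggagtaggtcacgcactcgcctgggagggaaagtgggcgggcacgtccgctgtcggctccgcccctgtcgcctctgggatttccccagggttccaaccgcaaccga

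The clamp of the Fanconi pathway and its helicase had the highest role median, a log2 fold change of 1.27, and all 3 genes were called higher. *Fanci* (ENSMUSG00000039187, chromosome 7, 79391929 to 79450264) encodes the partner of FANCD2 in the clamp. Its normalised level was 12.6 and 15.2 CPM in ctrl 1 and ctrl 3, and 29.4, 39.3 and 35.2 CPM in cko 1, 2 and 3. The mean rose from 13.9 ± 1.82 (SD, n = 2) to 34.6 ± 4.94 CPM (SD, n = 3). The gap between the nearest ctrl and cko libraries was wider than the spread within either genotype. The log2 fold change was 1.32 (SE 0.157, adjusted p = 0.00288 in edgeR). *Fancd2*, the subunit whose ubiquitin marks activation of the pathway, was at 21.1 and 25.4 CPM in ctrl and 35.3, 52.6 and 50.1 CPM in cko NSCs (log2 fold change 0.99, SE 0.184, adjusted p = 0.0136 in edgeR). *Brip1*, also called FANCJ, is a helicase that binds BRCA1. It had 5.90 and 7.90 CPM in ctrl and 12.3, 19.0 and 18.4 CPM in cko NSCs (log2 fold change 1.27, SE 0.236, adjusted p = 0.0135 in edgeR). In each of the 3 genes the genotypes did not overlap, and cko 1 was the cko library nearest to ctrl.

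The core complex acts upstream of that clamp. Of its 7 genes, FANCM included, 1 was called higher and 1 lower, with a median log2 fold change of 0.35. *Fanca*, a scaffold subunit of the complex, was the gene called higher, at 16.3 and 19.7 CPM in ctrl and 26.0, 34.2 and 35.2 CPM in cko NSCs (log2 fold change 0.82, SE 0.163, adjusted p = 0.0168 in edgeR). *Fance* (chromosome 17, 28313519 to 28326572), whose product bridges the complex to FANCD2, was called lower. It was at 36.5 and 42.2 CPM in ctrl and 26.5, 31.6 and 29.6 CPM in cko NSCs (log2 fold change -0.43, SE 0.113, adjusted p = 0.0417 in edgeR). Each cko library was below both ctrl libraries, but the call was lost without any one of ctrl 3, cko 1, cko 2 or cko 3, with an adjusted p of 0.0916 to 0.132. *Fancm*, the DNA translocase that recruits the complex, was at 29.4 and 26.4 CPM in ctrl and 33.0, 36.3 and 38.7 CPM in cko NSCs (log2 fold change 0.37, adjusted p = 0.0565 in edgeR). *Fancl*, the ubiquitin ligase subunit, was at 6.68 and 6.88 CPM in ctrl and 7.33, 9.26 and 10.7 CPM in cko NSCs (0.43, adjusted p = 0.185). *Fancg* was at 23.6 and 22.7 CPM in ctrl and 23.9, 28.1 and 30.6 CPM in cko NSCs (0.25, adjusted p = 0.219). These last 3 were not called, although each cko library was above both ctrl libraries. *Fancf* was at 4.28 and 6.24 CPM in ctrl and 6.21, 6.90 and 6.94 CPM in cko NSCs (0.35, adjusted p = 0.299), and its genotypes overlapped. *Fancc* was at 15.0 and 14.9 CPM in ctrl and 12.5, 14.9 and 14.3 CPM in cko NSCs (-0.10, adjusted p = 0.627), with an interval of -0.41 to 0.20.

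**Figure D2:**
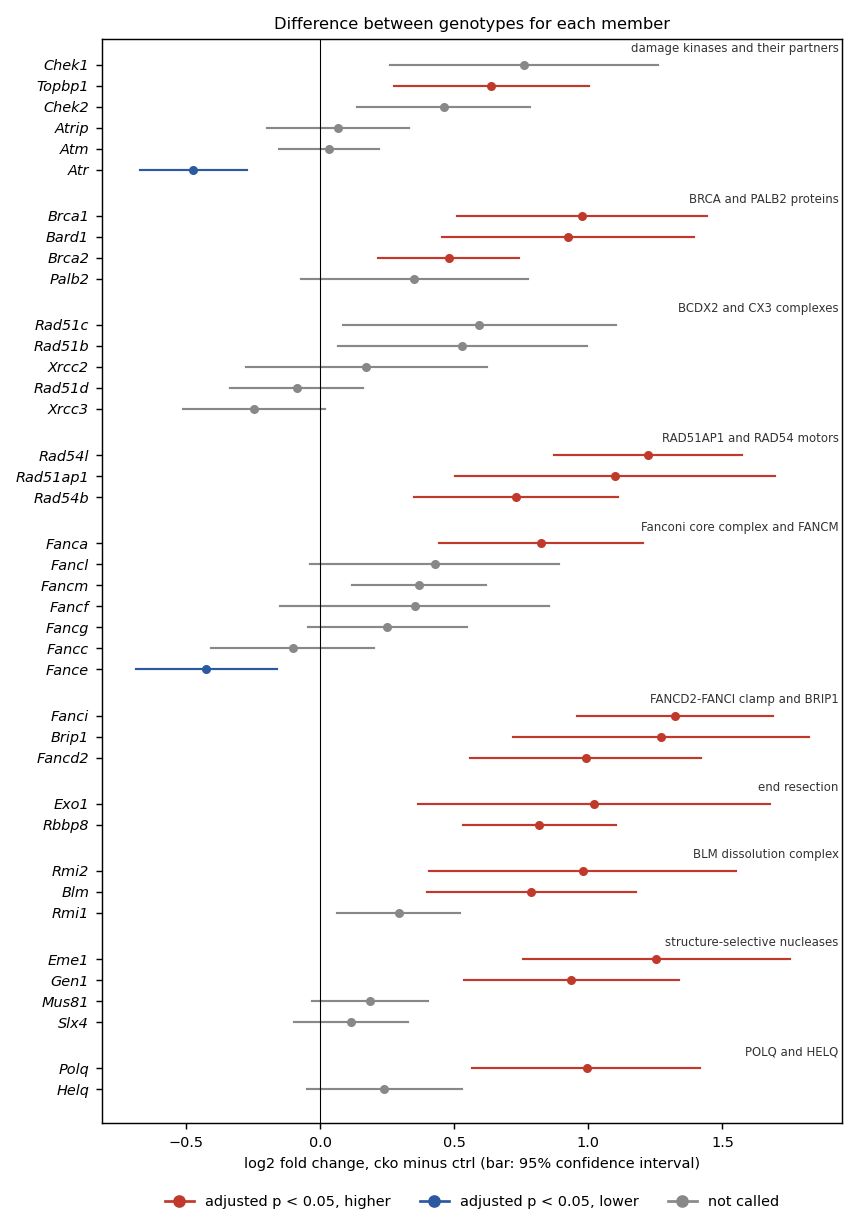
Log2 fold change of cko over ctrl for each of the 39 members, with 95% confidence intervals as bars and members grouped by role. The 18 genes in red were called higher at an adjusted p under 0.05 and the 2 in blue, *Atr* and *Fance*, lower, and all 5 genes of the BCDX2 and CX3 complexes are grey.

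Of the 4 genes of the BRCA and PALB2 group, which prepares resected DNA for strand exchange, 3 were called higher, with a median log2 fold change of 0.70. *Brca1*, a ubiquitin ligase and tumour suppressor that favours recombination over end joining, was at 18.7 and 26.5 CPM in ctrl and 35.1, 50.1 and 47.8 CPM in cko NSCs (log2 fold change 0.98, SE 0.199, adjusted p = 0.0185 in edgeR). Its obligate partner *Bard1* was at 7.34 and 10.2 CPM in ctrl and 13.8, 18.1 and 18.0 CPM in cko NSCs (0.92, SE 0.201, adjusted p = 0.0225 in edgeR). The log2 fold changes of the pair lay within 1 SE of each other. *Brca2*, which acts on the resected single strand, rose from 26.0 and 27.4 CPM in ctrl to 33.0, 38.2 and 40.3 CPM in cko NSCs (0.48, SE 0.112, adjusted p = 0.0290 in edgeR). Without ctrl 1 its log2 fold change was 0.43, which did not pass. *Palb2*, the link between BRCA1 and BRCA2, was not called (0.35, adjusted p = 0.227), at 7.16 and 6.14 CPM in ctrl and 7.33, 8.83 and 9.28 CPM in cko NSCs.

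Of the genes that assist strand exchange, *Rad51ap1* and the motors were called higher and the genes of the BCDX2 and CX3 complexes were not called. *Rad54l* (ENSMUSG00000028702, chromosome 4, 116094264 to 116123690) encodes the motor that drives strand invasion. It was at 14.8 and 16.3 CPM in ctrl and 30.1, 40.1 and 38.7 CPM in cko NSCs, or 15.6 ± 1.07 (SD, n = 2) against 36.3 ± 5.44 CPM (SD, n = 3). The ctrl libraries nearly coincided and every cko library was well above them (log2 fold change 1.22, SE 0.150, adjusted p = 0.00333 in edgeR). Its paralog *Rad54b* was at 7.21 and 9.02 CPM in ctrl and 12.3, 14.3 and 13.7 CPM in cko NSCs (0.73, SE 0.162, adjusted p = 0.0247 in edgeR), a call that was lost without cko 1 at a log2 fold change of 0.78. *Rad51ap1*, which stimulates the joining of strands, was at 9.78 and 15.4 CPM in ctrl and 19.9, 31.7 and 29.0 CPM in cko NSCs (1.10, SE 0.255, adjusted p = 0.0281 in edgeR). The median of these 3 genes was 1.10. The 5 genes of the BCDX2 and CX3 complexes, which support strand exchange, had a median of 0.17. By edgeR and by DESeq2 0 of them were called, and 2 had an unadjusted p under 0.05 in edgeR.

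Those 2 genes lay above 0. *Rad51c* was at 7.43 and 9.18 CPM in ctrl and 10.4, 15.7 and 11.3 CPM in cko NSCs (log2 fold change 0.59, adjusted p = 0.107 in edgeR). *Rad51b* was at 3.23 and 3.26 CPM in ctrl and 4.70, 4.89 and 4.46 CPM in cko NSCs (0.53, adjusted p = 0.113 in edgeR). Both genes had cko levels above both ctrl levels, and the intervals ran from 0.083 to 1.10 for *Rad51c* and from 0.064 to 0.99 for *Rad51b*. *Xrcc3* was at 31.1 and 26.6 CPM in ctrl and 22.7, 25.6 and 24.5 CPM in cko NSCs (-0.25, adjusted p = 0.175). *Rad51d* was at 21.5 and 21.3 CPM in ctrl and 19.3, 21.3 and 19.8 CPM in cko NSCs (-0.089, adjusted p = 0.611). For *Xrcc2* the log2 fold change was 0.17 (adjusted p = 0.585), with cko 1 the lowest and cko 2 the highest of the 5 libraries. None of these 3 differences was larger than the spread between libraries by the test.

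The 2 resection genes were both called higher. *Rbbp8*, which encodes CtIP and starts resection together with the MRE11 nuclease, was at 17.0 and 20.0 CPM in ctrl and 29.8, 34.6 and 33.2 CPM in cko NSCs (log2 fold change 0.82, SE 0.122, adjusted p = 0.00632 in edgeR). It remained called in each of the 13 alternative fits. *Exo1*, the nuclease that extends the resected stretch, was at 8.08 and 13.4 CPM in ctrl and 15.6, 26.3 and 23.1 CPM in cko NSCs (1.02, SE 0.281, adjusted p = 0.0479 in edgeR). Its ctrl libraries stood further apart on the log2 scale, by 0.73, than those of most members, and without ctrl 1 its log2 fold change was 0.69 (adjusted p = 0.0988).

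Of the 7 genes that dissolve or cut the joined molecules, 4 were called higher. *Blm*, the helicase mutated in Bloom syndrome, was at 18.9 and 24.1 CPM in ctrl and 30.9, 42.7 and 37.1 CPM in cko NSCs (log2 fold change 0.79, SE 0.167, adjusted p = 0.0211 in edgeR). Of its cofactors, *Rmi2* was at 3.58 and 6.08 CPM in ctrl and 8.62, 9.69 and 10.1 CPM in cko NSCs (0.98, SE 0.245, adjusted p = 0.0355 in edgeR), and without cko 1 it was at 1.03 and not called. *Rmi1*, the scaffold between BLM and its topoisomerase, was at 27.6 and 26.5 CPM in ctrl and 34.2, 34.5 and 30.7 CPM in cko NSCs and was not called (0.29, adjusted p = 0.0839). Its cko libraries were all above ctrl, with a 95% confidence interval of 0.063 to 0.52. Among the nucleases, *Eme1* was at 4.89 and 6.62 CPM in ctrl and 11.1, 15.4 and 14.4 CPM in cko NSCs (1.25, SE 0.213, adjusted p = 0.00974 in edgeR). EME1 works only as a dimer with MUS81, and *Mus81* was at 28.9 and 30.2 CPM in ctrl and 31.6, 34.6 and 34.4 CPM in cko NSCs (0.18, adjusted p = 0.213). *Gen1*, which cuts Holliday junctions, was at 10.3 and 13.1 CPM in ctrl and 19.0, 25.3 and 22.7 CPM in cko NSCs (0.94, SE 0.171, adjusted p = 0.0125 in edgeR). *Slx4*, the nuclease scaffold, was at a log2 fold change of 0.11 with an interval of -0.098 to 0.33 (adjusted p = 0.424).

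*Polq*, the polymerase of an error-prone backup route for resected ends, was at 13.7 and 16.6 CPM in ctrl and 23.7, 34.0 and 32.6 CPM in cko NSCs (log2 fold change 0.99, SE 0.182, adjusted p = 0.0127 in edgeR). *Helq*, a helicase related to it in sequence, was at 18.8 and 20.4 CPM in ctrl and 21.4, 25.7 and 22.2 CPM in cko NSCs (0.24, adjusted p = 0.227). All *Helq* levels in cko were above those in ctrl, by less than the test could call.

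The kinases that sense damage and their partners were mixed, with 1 gene called higher, 1 lower and a median of 0.26 over 6 genes. *Atr* (ENSMUSG00000032409, chromosome 9, 95857597 to 95951781), the kinase that answers stalled replication forks, was the member with the lowest log2 fold change. It was at 61.3 and 64.9 CPM in ctrl and 42.9, 44.8 and 48.4 CPM in cko NSCs, or 63.1 ± 2.54 (SD, n = 2) against 45.4 ± 2.80 CPM (SD, n = 3). The gap between the genotypes was larger than the spread within either (log2 fold change -0.47, SE 0.085, adjusted p = 0.0118 in edgeR), and without cko 2 the log2 fold change was -0.48 with an adjusted p of 0.0685. *Topbp1*, which activates ATR, went the other way, from 85.1 and 109.8 CPM in ctrl to 125.4, 162.1 and 167.0 CPM in cko NSCs (0.64, SE 0.155, adjusted p = 0.0328 in edgeR), and without ctrl 1 it was 0.46 (adjusted p = 0.0640). *Chek1*, the kinase that ATR switches on, was at 11.3 and 16.9 CPM in ctrl and 19.1, 25.9 and 26.1 CPM in cko NSCs (0.76, adjusted p = 0.0507 in edgeR), just outside the threshold, and DESeq2 called it. *Chek2*, the corresponding kinase below ATM, was at 13.8 and 15.7 CPM in ctrl and 17.9, 21.1 and 21.8 CPM in cko NSCs (0.46, adjusted p = 0.0621 in edgeR). *Atm* and *Atrip*, the partner that holds ATR on single strands, had log2 fold changes of 0.032 and 0.066 (adjusted p = 0.825 and 0.731). Their intervals ran from -0.16 to 0.22 and from -0.20 to 0.33, and their ctrl libraries differed from each other by more than the genotypes did.

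Levels of different genes were compared per kb of the longest protein-coding transcript. By this measure the mean level over the 5 libraries ran from 1.83 CPM per kb for *Brip1* to 24.9 CPM per kb for *Topbp1*. The median was 4.86 CPM per kb over the members called higher and 6.02 CPM per kb over the other members. *Fance* was among the more abundant members at 16.4 CPM per kb, and *Rad51b*, *Rmi2* and *Palb2* were among the least abundant at 1.88, 2.03 and 2.07 CPM per kb. The members had 61 to 3782 counts per library. Exons of 20 members share bases with another gene, in 8 of them at least 10% of their length, and whether strand was used in counting is not given in the sources used here. The most affected was *Rad54b*, which shares 35.8% of its exon bases with *Fsbp* on the same strand (log2 fold change of *Fsbp* -0.066). On the other strand *Fanci* shares 16.0% with *Polg* (0.21, mean level 200.5 CPM) and *Rad54l* 15.4% with *Lrrc41* (-0.20, 46.1 CPM). *Eme1* shares 8.0% with *Lrrc59* (0.044, 153.4 CPM), also on the other strand. None of these partners was called. The partner that was called is *Hnrnpk* (0.33, adjusted p = 0.0265 in edgeR, mean level 675.6 CPM), which shares 5.02% of the exon bases of *Rmi1* on the other strand.

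Other genes of these pathways were listed beside the members. Of 51 other genes of recombination, the Fanconi pathway and the fork checkpoint, 13 were called higher, with a median log2 fold change of 0.17, against 7.86% of all tested genes. The highest were *Clspn*, whose product claspin links ATR to CHK1 (1.15), and *Timeless*, whose product steadies the fork. *Timeless* was at 25.9 and 35.0 CPM in ctrl and 42.2, 63.3 and 60.1 CPM in cko NSCs (0.87, adjusted p = 0.0277 in edgeR). The lowest of the called genes were *Rad50*, a subunit of the MRE11 complex, and *Babam1*, a subunit of the BRCA1-A complex, both at 0.34. In this list 0 genes were called lower by edgeR or DESeq2, and 2 had an unadjusted p under 0.05 in that direction.

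The other repair pathways had medians of 0.052 to 0.13. In end joining 4 of 15 tested genes were called higher, with a median of 0.052, and the highest were *Mad2l2* (1.21) and *Polm* (1.15), followed by *Paxx* (0.49) and *Poll* (0.40). *Mad2l2*, or REV7, works in shieldin against resection and also in translesion synthesis. Mismatch repair had 1 of 6 genes called higher, *Msh3* (0.51), which recognises loops left by replication, and a median of 0.13. Nucleotide excision repair had 1 of 20, *Cetn2* (0.54), which also encodes a centrosomal protein, and a median of 0.061. Base excision repair had 2 of 17 called higher, the glycosylase *Neil3* (0.93) and the endonuclease *Apex1* (0.53), and 1 called lower, the glycosylase *Nthl1* (-0.52), with a median of 0.13.

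**Figure D3:**
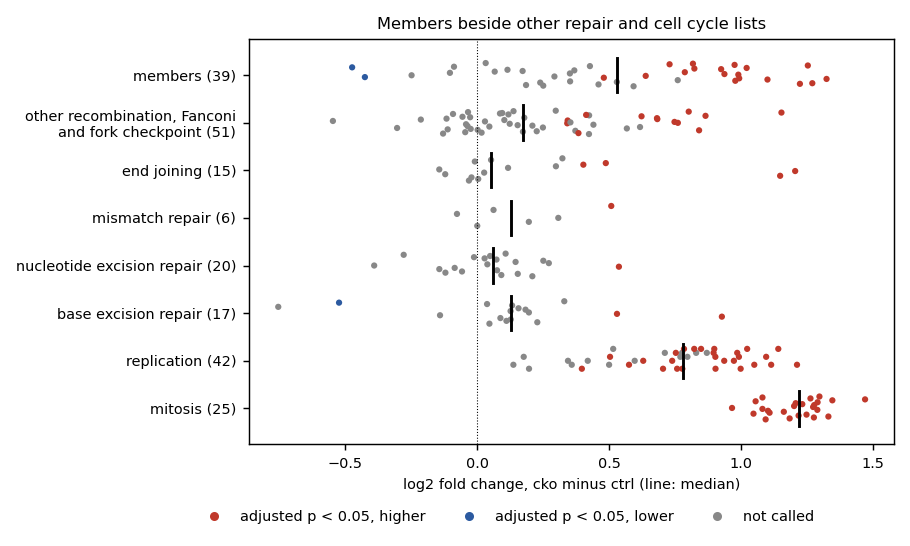
Log2 fold change of cko over ctrl for the members, for 5 other repair lists and for genes of replication and mitosis, 1 point per tested gene, with the median as a line. Medians are 0.53 for the members, 0.052 to 0.17 for the other repair lists, 0.78 for replication and 1.22 for mitosis.

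Genes of the cell cycle were set beside the members because homologous recombination copies a sister that is present only after replication. Of 42 replication genes 27 were called higher, with a median log2 fold change of 0.78, and of 25 mitosis genes 25 were, with a median of 1.22. The median of the members, 0.53, was below both. Of the 39 members, 15 lay above the replication median and 4, *Fanci*, *Brip1*, *Eme1* and *Rad54l*, above the mitosis median. At the other end 8 members lay below the lowest replication gene. Whether the members differ because more cells are in cycle was not tested.

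The members, these lists and the other repair lists also varied from library to library. Relative to the mean of the ctrl libraries, the median log2 ratio of the members was 0.34 in cko 1, 0.59 in cko 2 and 0.60 in cko 3. The replication genes were at 0.49, 0.95 and 0.88 and the mitosis genes at 0.98, 1.35 and 1.27 in the same libraries. The other recombination, Fanconi and fork checkpoint genes were at 0.155, 0.194 and 0.204 there, and base excision repair at -0.052, 0.26 and 0.17. Mismatch repair was at -0.084, 0.20 and 0.24 and nucleotide excision repair at 0.031, 0.046 and 0.11. End joining was nearly flat, at 0.127, 0.128 and 0.128. The lowest of the 3 cko libraries was cko 1 in 37 of the 39 members, and in 39 of 39 the level in cko 2 was above that in cko 1. The ctrl libraries differed in the same way, since 30 members, among them each of the 18 called higher, were lower in ctrl 1 than in ctrl 3, as were 37 of the 42 replication genes. Between the ctrl libraries the median difference of the members was 0.21 on the log2 scale, against 0.26 to 0.69 over the 6 pairs of a cko with a ctrl library. The difference between ctrl 3 and cko 1 was the smallest of the 6, and those of the other pairs were from 0.54 upwards.

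**Figure D4:**
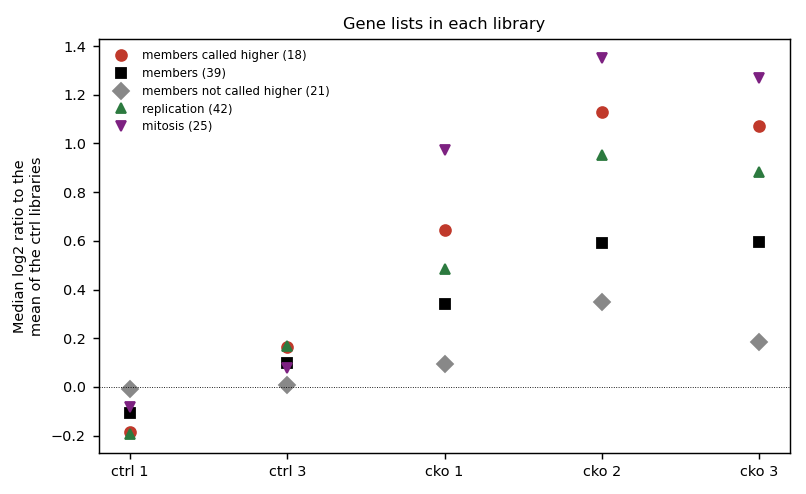
Median log2 ratio to the mean of the ctrl libraries in each of the 5 libraries, for the 39 members, the 18 called higher, the other 21, 42 replication genes and 25 mitosis genes. All 5 lists are above 0 in every cko library and lowest there in cko 1, and the members called higher, which were chosen on these libraries, lie between the replication and mitosis genes.

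The libraries held 17883796 to 23335736 counts. The NSC markers *Sox2* (556 to 626 CPM), *Nes*, *Vim* and *Fabp7* were high in every library, and 3 of 10 NSC markers were called higher (*Nes*, *Hes5* and *Prom1*) and 2 lower (*Hes1* and *Slc1a3*). The other NSC markers ran from 10.8 CPM for *Hes1* in cko 3 to 1898 CPM for *Slc1a3* in ctrl 3, with *Pax6* at 44.9 to 51.9 CPM. Some markers of other cells differed between the genotypes. The 6 astrocyte markers summed to 2019 and 1036 CPM in ctrl and 548 to 960 CPM in cko NSCs, with 3 called lower. Among them *Gfap* was at 1008 and 178 CPM in ctrl and 86.7 to 298 CPM in cko NSCs, and was not called. Of 7 oligodendrocyte lineage markers *Mbp*, *Sox10* and *Mag* were called lower and *Olig1* and *Olig2* higher. *Mbp* was at 139 and 238 CPM in ctrl and 9.30 to 11.8 CPM in cko NSCs. The list summed to 2151 and 2578 CPM in ctrl and 2884 to 3093 CPM in cko NSCs. Of 6 tested neuron markers *Syt1* was called higher and *Dcx* lower. The neuron list summed to 1227 and 1102 CPM in ctrl and 1196 to 1225 CPM in cko NSCs. *Cx3cr1* and *Tmem119* of microglia and *Cdh5* of endothelium were at 0 in every library, where the depth allows up to 0.129 to 0.168 CPM. Other markers of these cells were detected at low levels. *P2ry12* of microglia was at 0.046 to 0.44 CPM and *Pecam1* of endothelium at 0.28 to 0.53 CPM. The microglia list summed to at most 0.48 CPM in a library and the endothelium list to at most 0.75 CPM. *Xist* was at 2889 and 2557 CPM in ctrl and 787 to 894 CPM in cko NSCs, and 4 Y-linked genes, all called higher, summed to 94.7 and 116 CPM in ctrl and 231 to 256 CPM in cko NSCs. Both kinds of RNA were present in every library, as in a mix of male and female cells. The sex makeup of the libraries and the genotype cannot be told apart here. None of the members lies on a sex chromosome, and the part of these cell type markers in the members' differences was not tested.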

How the data were processed

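RNA-seq was made from E14.5 NSCs of cko and ctrl embryos. The authors checked the reads with FastQC 0.11.5, filtered them with NGSQC 2.3.3 and aligned them to mm10 with HISAT2 (the labels name GRCm39), and deposited raw counts per Ensembl gene, without normalization. The counting tool, annotation and strand setting are not given in the sources used here. The labels name a column kit for RNA where the study's methods name TRIzol.

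Counts of 5 libraries were analysed with edgeR 4.0.16 in R 4.3.3. Genes were kept by filterByExpr, normalised by TMM (factors 0.990 to 1.007) and tested by the quasi-likelihood test, with Benjamini-Hochberg adjustment over all 16710 tested genes. Levels are TMM-normalised CPM. SE is the log2 fold change divided by the root of F, and intervals are at 95%. Names and positions were taken from GENCODE M21 (GRCm38) for 31829 of 32493 IDs. The unmatched IDs held 0.223% to 0.342% of the counts. The floor of 3 counts covers counting error only. Members and lists were chosen with earlier results of these data known, so lists are described without a test. Values in all libraries are given for called members, and for the others where the log2 fold change was beyond 0.3 in size or the genotypes did not overlap. Of other pathway and repair lists, the 2 highest and the 2 lowest called genes are named. Some genes of these lists and of the marker lists are not reported here. Alternatives were DESeq2 1.42.0, other scalings and filters, the replicate block, all 6 columns, and leaving out each library. The steps were tested on simulated data. Seed matches of miR-151 were not analysed here.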

Additional observations from a re-analysis of the deposited data

How the results depend on the processing

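Among the 13 alternatives, 17 to 22 members were called higher in those that used the 5 libraries. With all 6 columns 24 were called by edgeR and 23 by DESeq2. Those 6-column fits count ctrl 2 as a replicate, although it carries no counts of its own. Over all tested genes edgeR then called 2865 higher, against 1314 in the main fit. Leaving out 1 library gave 3 to 20 members called higher, 0 to 2 called lower and 4 to 17 higher at the study's threshold, with the lowest of each without cko 2, tied with cko 3 for the first and ctrl 1 for the last. Fewer genes of all kinds were called without cko 2 or cko 3, and the cause was not tested. The median of the members stayed between 0.45 and 0.65, and the median of all genes lay between -0.0087 and -0.0026 under the scalings. *Fanci*, *Rad54l* and *Rbbp8* were called in every alternative. Log2 fold changes near 0 changed sign when 1 library was left out, with ranges of -0.039 to 0.10 for *Atm*, -0.0083 to 0.14 for *Atrip* and -0.012 to 0.31 for *Xrcc2*, the lowest without ctrl 3, ctrl 3 and cko 2. A fit that leaves out a ctrl library assumes that the lone one varies like the cko group.

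Across genes, deviations from the genotype mean had r = 0.134 for replicate 1 and 0.0494 for replicate 3. For the unmatched ctrl 3 and cko 2 it was 0.107. With 2 ctrl libraries their deviations mirror each other, so these values cannot show whether the numbers are pairs. The numbers were not taken as pairs, since cko 2 has no ctrl partner. With the replicate block, 17 members were called higher, 2 lower and 6 higher at the study's threshold, the median was 0.45 and *Xrcc2* was at -0.012.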
